A study of Mus musculus with 10 samples.

Results

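The 38 genes described here make or remove reactive oxygen species in the left ventricle: the superoxide dismutases, catalase, the glutathione peroxidases, peroxiredoxins and thioredoxins, the glutathione enzymes, NRF2 with its repressor and several of its targets, and the subunits of NADPH oxidase. They were chosen by name and role, though with earlier results of these data known. All 38 were found among the 57185 genes with counts and passed the low-count filter that left 13453 genes. RNA was sequenced from the ventricles of 5 MLPKO and 5 cRADΔ/Δ-MLPKO male mice, 1 library per mouse, to ask how deleting RAD in cardiomyocytes alters the transcriptome of a heart with dilated cardiomyopathy. All 10 mice lack muscle LIM protein (MLP, the product of *Csrp3*), carry a floxed *Rrad* gene and were injected with tamoxifen (100 mg/kg) at 10 weeks of age. The cRADΔ/Δ-MLPKO mice carry in addition the MYH6-MerCreMer transgene, which deletes RAD in cardiomyocytes and leaves it in the other cells of the heart, whereas the MLPKO mice have no Cre. The labels give an age of 16 weeks, whereas the paper places the hearts 1 month after tamoxifen, which would be a younger age. The sources used here do not settle the difference. No group with intact MLP, and none with Cre and an unfloxed *Rrad*, was analysed here, so the Cre transgene itself cannot be told apart from the deletion.

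Superoxide arises in the heart from the mitochondrial electron transport chain and from NADPH oxidases, membrane enzymes that pass electrons from NADPH to oxygen. Superoxide dismutases turn it into hydrogen peroxide, which catalase, glutathione peroxidases and peroxiredoxins then break down, drawing on glutathione and thioredoxin that are kept reduced at the expense of NADPH. The transcription factor NRF2, held in check by KEAP1, raises many of these enzymes when cells meet oxidants or electrophiles. Their mRNA levels say nothing direct about the amount of oxidant, since most of the enzymes are also controlled by their substrates, by selenium supply and by protein turnover.

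In these hearts the genes differed little between the genotypes. *Cat* (catalase) and *Gstm2* (a mu-class glutathione transferase) were lower in cRADΔ/Δ-MLPKO, at 81.3% and 77.1% of the MLPKO mean, and no gene of the 38 was called higher. That is 2 of 38 (5.26%) at an adjusted p under 0.05 in edgeR's quasi-likelihood test, against 2.74% of all genes tested (1.80% lower and 0.944% higher in cRADΔ/Δ-MLPKO). At an unadjusted p under 0.05 there were 8 of the 38 (21.1%), 4 higher and 4 lower, against 21.6% of all genes. The 5 values of each genotype did not overlap for 3 of the 38 (7.89%), *Cat*, *Gstm2* and *Prdx6*, against 6.62% of all genes. DESeq2 called 4 of the 38 (10.5%), adding *Prdx6* (adjusted p = 0.0354, lower) and *Cyba* (adjusted p = 0.0449, higher), against 9.65% of all genes. The last 3 shares were close to those of all genes, and the first rests on 2 genes. In simulated counts with known changes, 16.1% of DESeq2's calls were false, against 5.0% of edgeR's.

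The differences were also small in size. The log2 fold changes of the 38 genes, given throughout as cRADΔ/Δ-MLPKO against MLPKO, ranged from −0.53 to 0.73 with a median of 0.00, where the median over all genes was 0.01. For 29 of the 38 (76.3%) the fold change was under 0.2 in size, against 65.2% of all genes. The 95% confidence interval lay wholly between −0.5 and 0.5 for 30 of the 38 (78.9%), against 61.6% of all genes, so for these 30 a larger change in mRNA lay outside the interval. The intervals that reached past these bounds belonged to *Sod3*, *Gpx3*, *Txnip*, *Gstm2*, *Hmox1*, *Nox4*, *Cyba* and *Cybb*.

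**Figure D1:**
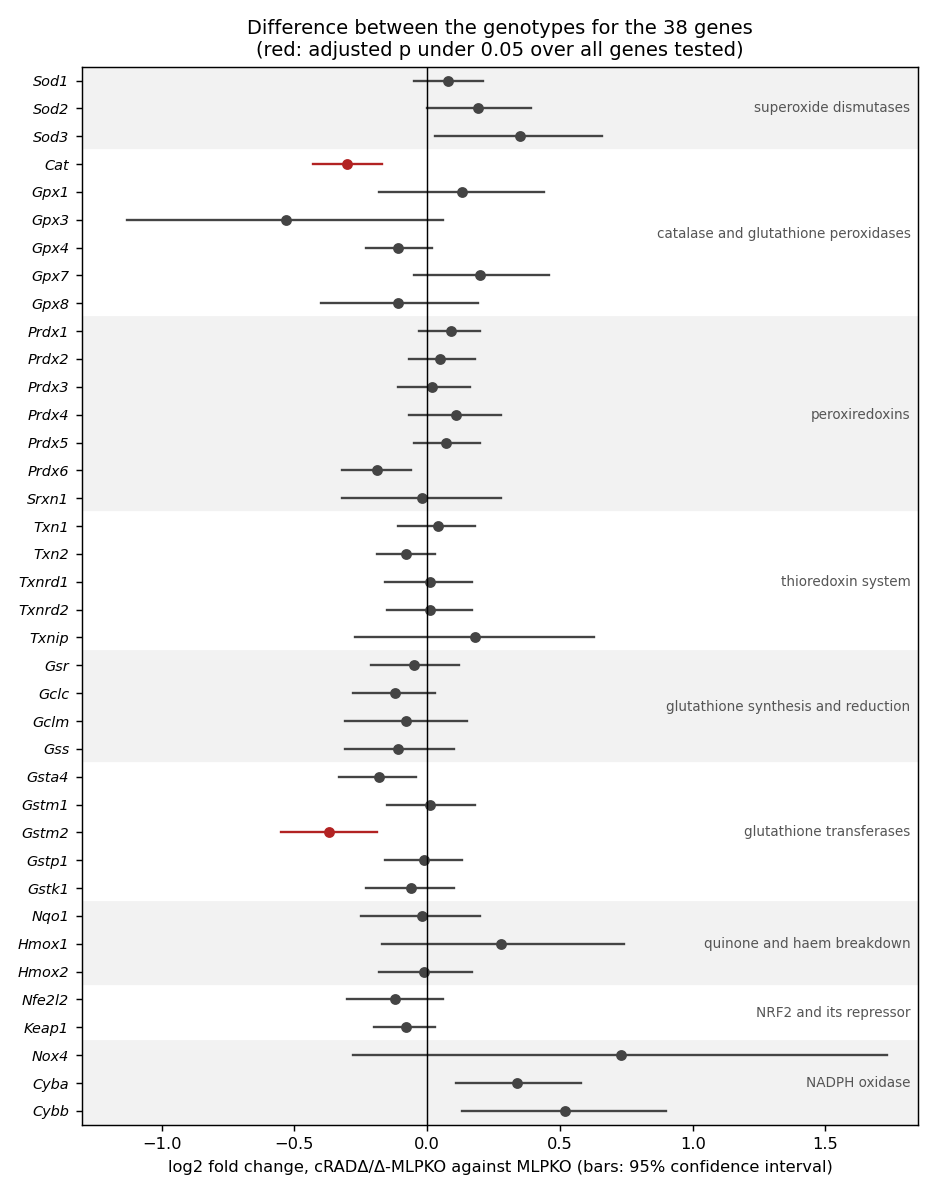
Log2 fold change of each of the 38 genes in cRADΔ/Δ-MLPKO against MLPKO, from edgeR's quasi-likelihood fit to 5 mice per genotype, with bars for the 95% confidence interval and red for an adjusted p under 0.05 over all 13453 genes. The red points are *Cat* (−0.30) and *Gstm2* (−0.37), and the widest interval is that of *Nox4* (−0.28 to 1.73).

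The libraries held 33457406 to 49965101 counts. Among counts of 1 to 20, 73.7% to 80.3% in each library were even, so both mates of a read pair appear to have been counted in most cases and the number of fragments is lower than the counts. The share of counts from the mitochondrial chromosome was 15.8% to 21.2% in MLPKO and 21.4% to 22.6% in cRADΔ/Δ-MLPKO. Over all genes 369 were called, a number that rested on single mice: it was 107, 826 and 47 without MLPKO mouse 1, 4 or 5, and 142, 105, 100 and 50 without cRADΔ/Δ-MLPKO mouse 2, 3, 4 or 5. The gene-level count of *Rrad* overlapped between the genotypes (223 ± 66.1 CPM in MLPKO and 171 ± 29.9 CPM in cRADΔ/Δ-MLPKO, SD, n = 5; log2 fold change −0.38, adjusted p = 0.290). Because other cells keep the gene and the sources used here do not give which exons are floxed, that count does not check the genotypes, which are those of the labels. *Csrp3* transcripts were counted in every mouse (1776 ± 917 and 840.2 ± 197 CPM, SD, n = 5; adjusted p = 0.0667), and which of its exons the knockout removes is likewise not given.

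Marker lists for cell types of the heart were summed in each mouse, in CPM (counts scaled to a common library size by TMM). The ventricular cardiomyocyte list of 8 genes summed to between 66343 and 78561 CPM in MLPKO and between 52054 and 64048 CPM in cRADΔ/Δ-MLPKO, without overlap. *Myh6* was the largest part of this sum, with means of 36497 CPM in MLPKO and 29887 CPM in cRADΔ/Δ-MLPKO. Of the 8 genes, 7 had an estimate below 0 and 1 above it (*Tnni3*, 0.13). edgeR called 1 of the 8 lower (*Tnnt2*) and DESeq2 called 2. The paper lists *Tnnt2* among the transcripts that RAD knockout lowered. The endothelial list of 6 genes summed to between 679 and 776 CPM in MLPKO and between 790.0 and 925 CPM in cRADΔ/Δ-MLPKO, also without overlap; all 6 had an unadjusted p under 0.05, edgeR called none and DESeq2 called 2. The smooth muscle and pericyte list of 7 genes, the mural cells of vessels, did not overlap either (496 to 646 CPM in MLPKO and 656 to 879.6 CPM in cRADΔ/Δ-MLPKO). edgeR called 2 of its genes higher, *Acta2* and *Rgs5*. Of its 6 genes tested, 4 had an estimate above 0 and 2 below it. *Cnn1* had a log2 fold change of −2.17 (edgeR adjusted p = 0.103), or −0.87 without MLPKO mouse 2. *Myh11* (0.01) and *Pdgfrb* (−0.01) hardly differed. Adipocyte genes were near 0 in 9 mice (at most 0.706 CPM in sum) and came to 76.1 CPM in cRADΔ/Δ-MLPKO mouse 3, which was also the highest of the 10 mice for *Sod3*, *Hmox1*, *Nox4*, *Cyba*, *Cybb*, *Gpx1*, *Gpx7*, *Txnrd1* and *Gsr*. Values without that mouse are given beside the first 5 of these. For the rest, the log2 fold change without it was 0.07 for *Gpx1*, 0.16 for *Gpx7*, −0.04 for *Txnrd1* and −0.09 for *Gsr*, none of them called. In bulk RNA, fewer cells of a type, less RNA per cell and a change in the marker genes themselves cannot be told apart.

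Per kilobase of exon, the level of the 38 genes spanned from 0.278 for *Nox4* to 231 CPM per kilobase for *Gpx4* over all mice. After *Gpx4*, the glutathione peroxidase that reduces lipid hydroperoxides in membranes, came the peroxiredoxins *Prdx3* (129) and *Prdx5* (108), both found in mitochondria, then *Txnip* (100.3) and *Cat* (70.2 CPM per kilobase). Cytosolic *Sod1* stood at 17.6 and mitochondrial *Sod2* at 38.1 CPM per kilobase. The order of the genes depends in part on the annotated exon length that divides the counts. That length was 8648 bases for *Sod1*, 13039 for *Sod2* and 6937 for *Gsr*, against 1724 for *Gpx4* and 1638 for *Prdx3*. The enzymes that make and recycle glutathione were all far lower, from 1.51 for *Gss* to 3.65 CPM per kilobase for *Gsr*, and *Cybb*, the catalytic subunit of the phagocyte NADPH oxidase, stood at 1.49. Mouse-to-mouse spread within a genotype was small for most of them: the SD of log2 CPM had a median of 0.125 in MLPKO and 0.11 in cRADΔ/Δ-MLPKO over the 38 genes, and its highest values were those of *Nox4* (0.83 and 0.88).

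**Figure D2:**
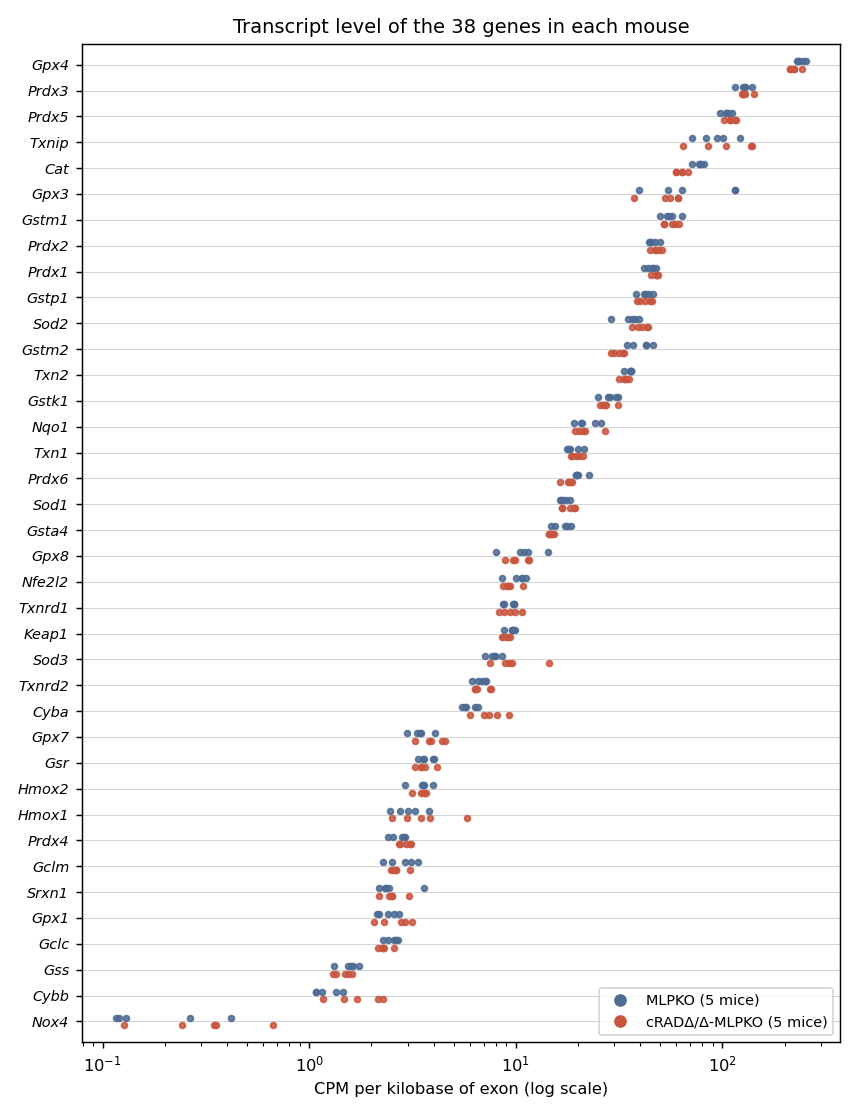
Level of each of the 38 genes in CPM per kilobase of exon (log scale), 1 point per mouse, blue for MLPKO and red for cRADΔ/Δ-MLPKO, ordered by the mean over all 10 mice. The order runs from *Gpx4* at 231 down to *Nox4* at 0.278 CPM per kilobase, and for most genes the red and blue points lie over one another.

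Some of these levels are uncertain because exons of other genes lie over the same bases, and neither the strand setting of the counting nor its handling of shared reads is given in the sources used here. Antisense exons cover 85.3% of the exonic bases of *Gpx1* (*Gm57050*, at 0 counts in every mouse), 85.0% of *Gpx3* (*Tnip1*), 75.8% of *Hmox2* (*Cdip1*) and 48.8% of *Sod1* (*Scaf4*). For *Gss*, *Txnip*, *Prdx5*, *Keap1* and *Prdx2* the share was between 20.6% and 32.7%. *Gstp1* shares 23.8% of its 100-base stretches with *Gstp2* and a pseudogene, and *Gpx4* shares 32.1% with pseudogenes and an antisense gene. No exon of another gene overlaps *Cat*, *Gstm2* or *Nox4*, and *Gstm2* shares 5.2% of its stretches with pseudogenes.

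Of the superoxide dismutases, none was called. *Sod2*, the manganese enzyme of the mitochondrial matrix, was measured at 476, 377, 455, 491 and 517 CPM in MLPKO mice 1 to 5 and at 474, 572, 532, 565 and 508 CPM in cRADΔ/Δ-MLPKO mice 1 to 5. Of the cRADΔ/Δ-MLPKO mice 3 were above every MLPKO mouse and the others lay within the MLPKO range; the log2 fold change was 0.19 (SE 0.09, unadjusted p = 0.0463, adjusted p = 0.224). *Sod3*, the secreted enzyme bound to the extracellular matrix, stood at 33.1, 29.5, 33.1, 35.8 and 31.9 CPM in MLPKO and at 38.8, 31.4, 60.6, 37.1 and 40.1 CPM in cRADΔ/Δ-MLPKO. Its log2 fold change of 0.35 (SE 0.15, adjusted p = 0.192) became 0.18 (adjusted p = 0.281) without cRADΔ/Δ-MLPKO mouse 3, the mouse with the adipocyte transcripts. *Sod1*, the copper-zinc enzyme of the cytosol, differed by 0.08 on the log2 scale (95% interval −0.05 to 0.21, adjusted p = 0.486).

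*Cat* encodes catalase, the haem enzyme of the peroxisome that splits hydrogen peroxide into water and oxygen (GRCm39 chromosome 2, 103284194 to 103316185, minus strand). MLPKO mice 1 to 5 had 263, 291, 299, 283 and 285 CPM, and cRADΔ/Δ-MLPKO mice 1 to 5 had 251, 218, 219.6, 234 and 233 CPM. Every cRADΔ/Δ-MLPKO mouse was below every MLPKO mouse, with means of 231 ± 13.3 against 284 ± 13.2 CPM (SD, n = 5). The log2 fold change was −0.30 (SE 0.06, 95% interval −0.43 to −0.17), with an adjusted p of 0.0266 in edgeR, 5.55e-05 in DESeq2 and 0.0269 in limma-voom. The size held when any mouse was left out (−0.33 to −0.27), but the adjusted p passed 0.05 without MLPKO mouse 3 (0.052) or 5 (0.0673) and without cRADΔ/Δ-MLPKO mouse 2 (0.0614), 3 (0.0643), 4 (0.0612) or 5 (0.0728). The summed cardiomyocyte marker list, of which *Myh6* was the largest part, was likewise lower in every cRADΔ/Δ-MLPKO mouse. The part of cardiomyocyte content in the *Cat* difference was not tested. Erythroid transcripts, from cells rich in catalase protein, overlapped between the genotypes (288 to 2798 CPM in MLPKO and 409 to 1978 CPM in cRADΔ/Δ-MLPKO). Their part in the *Cat* values was not tested either.

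**Figure D3:**
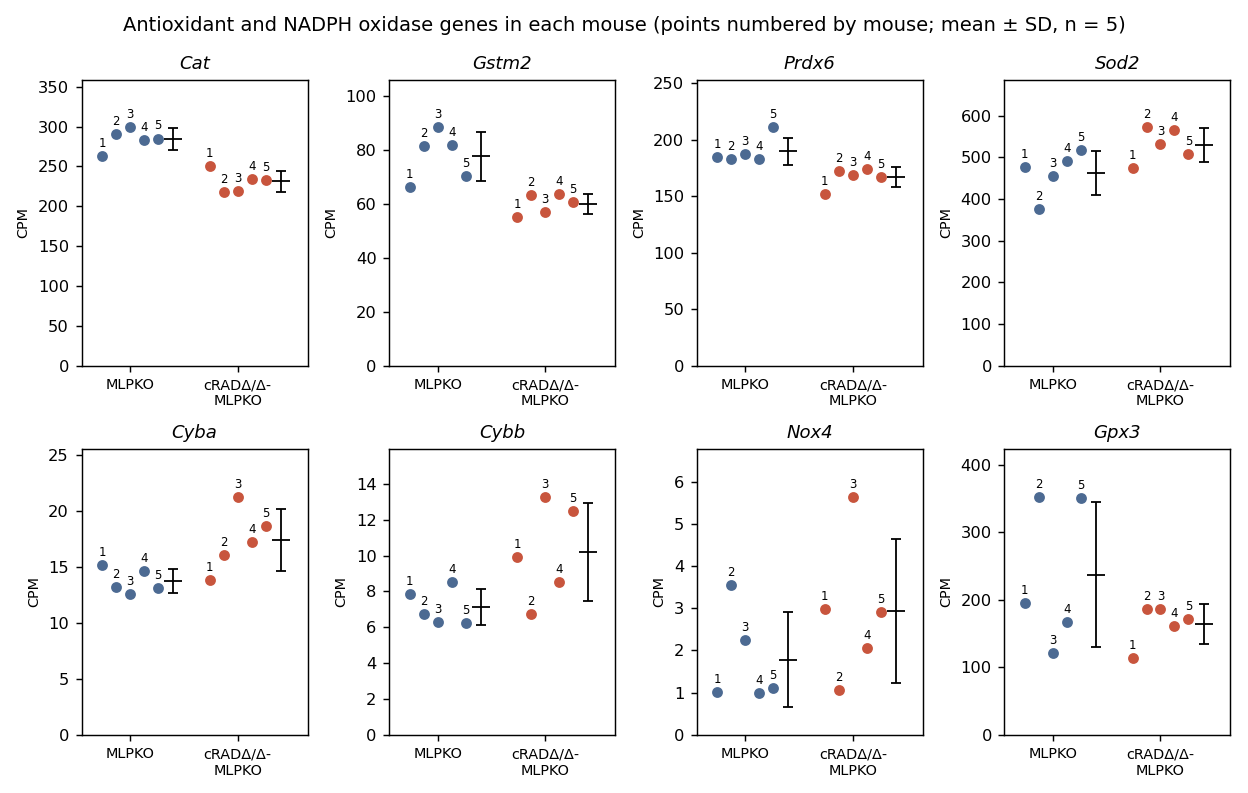
CPM of 8 of the genes in each mouse, points numbered by mouse, with the mean and SD of each genotype (n = 5) drawn to the right of its points. The genotypes separate for *Cat*, *Gstm2* and *Prdx6*, and overlap for *Sod2*, *Cyba*, *Cybb*, *Nox4* and *Gpx3*.

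None of the 5 glutathione peroxidases was called. *Gpx3*, the secreted form found in plasma, stood at 195, 353, 121, 167 and 351 CPM in MLPKO and at 114, 187, 186, 161 and 171 CPM in cRADΔ/Δ-MLPKO. MLPKO mice 2 and 5 were far above the cRADΔ/Δ-MLPKO mice, mouse 1 was slightly above them and mice 3 and 4 lay within their range; the log2 fold change of −0.53 (SE 0.27, adjusted p = 0.284) moved to −0.35 without MLPKO mouse 2 and likewise to −0.35 without MLPKO mouse 5. *Tnip1*, which covers most of *Gpx3* on the other strand, was at 55.4 ± 9.56 CPM in MLPKO and 42.1 ± 2.82 CPM in cRADΔ/Δ-MLPKO (SD, n = 5; adjusted p = 0.0678), and the share of its reads in the *Gpx3* count was not tested. *Gpx1*, the cytosolic and mitochondrial form, was counted at 3.72, 3.93, 3.49, 3.09 and 3.15 CPM in MLPKO and at 4.19, 2.98, 4.53, 3.34 and 4.03 CPM in cRADΔ/Δ-MLPKO (log2 fold change 0.13, adjusted p = 0.644). With 85.3% of its exonic bases under *Gm57050*, the *Gpx1* count covers an unknown part of its reads. *Gpx4* differed by −0.11 (95% interval −0.23 to 0.02), *Gpx7* by 0.20 (−0.05 to 0.46) and *Gpx8* by −0.11 (−0.40 to 0.19) on the log2 scale, *Gpx7* and *Gpx8* being forms of the endoplasmic reticulum.

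Among the peroxiredoxins, thiol peroxidases that thioredoxin recycles, *Prdx6* was the only one whose genotypes did not overlap. This form, which uses glutathione and also has a phospholipase activity, was at 185, 183, 187, 183 and 211 CPM in MLPKO and at 152, 172, 169, 174 and 167 CPM in cRADΔ/Δ-MLPKO. All 5 cRADΔ/Δ-MLPKO mice lay below the lowest MLPKO mouse, yet the log2 fold change of −0.19 (SE 0.06) had an adjusted p of 0.102 in edgeR and 0.101 in limma-voom against 0.0354 in DESeq2. *Prdx3*, the mitochondrial form, gave a close estimate of no change: 212, 188, 206, 229 and 212 CPM in MLPKO against 207, 210.4, 208, 233 and 205 CPM in cRADΔ/Δ-MLPKO, a log2 fold change of 0.02 with a 95% interval of −0.11 to 0.16. *Prdx1*, *Prdx2*, *Prdx4* and *Prdx5* differed by between 0.05 and 0.11 on the log2 scale, each with an interval that crossed 0. *Srxn1*, the sulfiredoxin that repairs overoxidized peroxiredoxins, differed by −0.02 (−0.32 to 0.28) and had 1 high MLPKO mouse (mouse 2, 33.9 CPM).

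In the thioredoxin system no gene was called and no unadjusted p was under 0.05. *Txnip*, the thioredoxin-interacting protein that glucose induces, was the most variable of the 5, at 299, 318, 225, 263 and 386 CPM in MLPKO and 438, 205, 329, 441 and 271 CPM in cRADΔ/Δ-MLPKO. The cRADΔ/Δ-MLPKO mice held both the lowest and the highest values of the 10, and the log2 fold change was 0.18 with a wide interval (−0.27 to 0.63, adjusted p = 0.671). *Txn1* and *Txn2*, the cytosolic and mitochondrial thioredoxins, differed by 0.04 (−0.11 to 0.18) and −0.08 (−0.19 to 0.03), and their reductases *Txnrd1* and *Txnrd2* by 0.01 each (−0.16 to 0.17 and −0.15 to 0.17).

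For the enzymes that build and reduce glutathione the estimates were all slightly below 0 and none passed a test. *Gclc* and *Gclm*, the catalytic and modifier subunits of the rate-limiting glutamate-cysteine ligase, had log2 fold changes of −0.12 (−0.28 to 0.03) and −0.08 (−0.31 to 0.15). *Gss*, glutathione synthetase, and *Gsr*, the reductase, stood at −0.11 (−0.31 to 0.10) and −0.05 (−0.21 to 0.12).

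*Gstm2*, a transferase that joins glutathione to electrophiles, had the largest called change of the 38 (GRCm39 chromosome 3, 107889004 to 107893785, minus strand). It stood at 66.3, 81.6, 88.4, 82.0 and 70.5 CPM in MLPKO and at 55.1, 63.3, 57.1, 63.8 and 60.6 CPM in cRADΔ/Δ-MLPKO, again without overlap. The log2 fold change was −0.37 (SE 0.08, 95% interval −0.55 to −0.19), with an adjusted p of 0.0381 in edgeR, 0.00184 in DESeq2 and 0.0411 in limma-voom. Without MLPKO mouse 2, 3 or 5 the adjusted p was 0.0533, 0.0668 or 0.0656, and without cRADΔ/Δ-MLPKO mouse 1, 2, 3, 4 or 5 it was 0.0734, 0.0646, 0.0939, 0.0706 or 0.0948, while the fold change stayed between −0.43 and −0.32. *Gstm1*, a neighbour of *Gstm2* in the same gene cluster and of the same class, gave no such difference (141 ± 13.5 CPM in MLPKO and 142 ± 10.7 CPM in cRADΔ/Δ-MLPKO, SD, n = 5; log2 fold change 0.01, 95% interval −0.15 to 0.18). *Gsta4*, which clears the lipid peroxidation product 4-hydroxynonenal, was at 42.3, 40.6, 47.3, 48.6 and 51.0 CPM in MLPKO and 39.7, 39.7, 41.1, 42.0 and 40.1 CPM in cRADΔ/Δ-MLPKO. Of the cRADΔ/Δ-MLPKO mice 3 lay below every MLPKO mouse and the others within the MLPKO range, with a log2 fold change of −0.18 (SE 0.07, unadjusted p = 0.0189, adjusted p = 0.142). *Gstp1* and *Gstk1* differed by −0.01 (−0.16 to 0.13) and −0.06 (−0.23 to 0.10).

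Because *Cat* and *Gstm2* were the called genes, the DNA upstream of their start sites in RefSeq (table for GRCm38.p6) is shown, from 250 bases before the start to the first base that an annotated exon covers. Both windows matched the GRCm39 genome once, and both are written 5′ to 3′ along the gene's minus strand. The *Cat* stretch lies within the annotated span of the gene, whose 5′ end is further upstream. The *Gstm2* stretch lies just outside the span of its gene.
Cat, chr2:103315565-103315748: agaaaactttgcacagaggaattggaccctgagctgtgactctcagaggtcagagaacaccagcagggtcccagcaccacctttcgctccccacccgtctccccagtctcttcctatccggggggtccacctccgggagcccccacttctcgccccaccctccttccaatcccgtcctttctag
Gstm2, chr3:107893786-107893986: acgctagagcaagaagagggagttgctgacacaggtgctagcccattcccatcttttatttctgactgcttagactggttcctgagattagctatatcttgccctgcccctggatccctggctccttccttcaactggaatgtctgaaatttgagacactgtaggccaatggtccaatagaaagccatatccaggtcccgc
The *Cat* sequence is richer in G and C (60.3%) than that of *Gstm2* (49.3%). Neither holds the core of the antioxidant response element, the motif that NRF2 binds with a small MAF protein, written here as TGACNNNGC and searched on both strands.

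That core occurs in the RefSeq start-site window, 250 bases before to 50 bases after the start, of 6 of the 32 genes that have one (18.8%), against 14.0% of all gene symbols with a window and 12.4% of all windows of that length. *Sod3*, *Prdx6*, *Gsr*, *Gclc*, *Gsta4* and *Hmox1* have none in the table. The motif overlaps that of AP-1, since the AP-1 motif TGACTCA can lie across its first bases. The 5 genes with the core upstream of the start are shown as 30-base stretches in GRCm39, with the match in capitals; where it lies on the opposite strand it reads GCNNNGTCA.
Sod1, chr16:90017584-90017613: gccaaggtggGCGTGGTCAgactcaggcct
Prdx1, chr4:116542653-116542682: cagggaaagcGCTGAGTCAtcccccgtagg
Txnrd1, chr10:82694938-82694967: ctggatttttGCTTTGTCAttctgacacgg
Gclm, chr3:122039062-122039091: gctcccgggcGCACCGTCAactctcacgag
Nfe2l2, chr2:75535228-75535257: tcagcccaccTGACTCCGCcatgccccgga
In *Txnrd1* it lies in 1 of 3 windows. The sixth gene, *Srxn1*, holds it 29 bases after the start. The stretches of *Sod1*, *Prdx1* and *Txnrd1* lie within the annotated span of the gene, and those of *Gclm* and *Nfe2l2* outside it. The log2 fold changes of the 6 were 0.08 for *Sod1*, 0.09 for *Prdx1*, 0.01 for *Txnrd1*, −0.08 for *Gclm*, −0.12 for *Nfe2l2* and −0.02 for *Srxn1*, and none was called. A match in such a window is a string of letters, not a measured binding site.

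The mRNAs of NRF2 and KEAP1 overlapped between the genotypes. *Nfe2l2*, which encodes NRF2, stood at 47.0, 61.2, 58.4, 58.5 and 54.8 CPM in MLPKO and at 49.4, 59.0, 47.2, 51.3 and 50.1 CPM in cRADΔ/Δ-MLPKO (log2 fold change −0.12, 95% interval −0.30 to 0.06, adjusted p = 0.417). *Keap1*, its repressor, stood at 54.8, 50.0, 54.3, 56.5 and 55.0 CPM against 49.6, 52.3, 48.6, 53.5 and 51.5 CPM (−0.08, 95% interval −0.20 to 0.03). NRF2 is controlled chiefly by the breakdown of its protein, so its mRNA is a poor guide to its activity.

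*Nqo1*, a quinone reductase often read as an index of NRF2 activity, was at 57.0, 52.8, 71.2, 57.4 and 66.5 CPM in MLPKO and at 73.9, 59.2, 55.4, 58.2 and 53.4 CPM in cRADΔ/Δ-MLPKO. Its log2 fold change was −0.02 with a 95% interval of −0.25 to 0.20, and its highest value was that of cRADΔ/Δ-MLPKO mouse 1. *Hmox1*, the inducible haem oxygenase, stood at 5.69, 4.34, 4.86, 6.72 and 5.29 CPM in MLPKO and at 5.21, 4.44, 10.2, 6.15 and 6.74 CPM in cRADΔ/Δ-MLPKO. The difference of 0.28 on the log2 scale (−0.17 to 0.74) was 0.07 without cRADΔ/Δ-MLPKO mouse 3. The constitutive *Hmox2* differed by −0.01 (−0.18 to 0.17).

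All 3 NADPH oxidase genes among the 38 had positive estimates and none was called by edgeR. *Cyba* encodes p22phox, the membrane subunit that stabilises NOX4 and the phagocyte oxidase alike. It was counted at 15.2, 13.2, 12.6, 14.6 and 13.1 CPM in MLPKO and at 13.8, 16.1, 21.3, 17.2 and 18.7 CPM in cRADΔ/Δ-MLPKO, where 4 of 5 mice exceeded every MLPKO mouse. On the log2 scale the difference was 0.34 (SE 0.11, 95% interval 0.11 to 0.58), with an adjusted p of 0.0973 in edgeR and 0.104 in limma-voom against 0.0449 in DESeq2, and it was 0.27 (adjusted p = 0.186) without cRADΔ/Δ-MLPKO mouse 3. *Cybb* encodes NOX2, the electron-carrying subunit of the oxidase of macrophages and neutrophils, also found in endothelium and cardiomyocytes. Its values were 7.86, 6.72, 6.28, 8.51 and 6.26 CPM in MLPKO and 9.93, 6.75, 13.3, 8.55 and 12.5 CPM in cRADΔ/Δ-MLPKO, again with 4 of 5 mice above the MLPKO range, mouse 4 by a small margin. Its log2 fold change of 0.52 (SE 0.18, adjusted p = 0.119) was 0.41 (adjusted p = 0.238) without cRADΔ/Δ-MLPKO mouse 3.

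*Nox4*, the constitutively active oxidase of cardiomyocytes, fibroblasts and vessel walls, had the largest estimate and the widest spread. The sum of the smooth muscle and pericyte list was higher in every cRADΔ/Δ-MLPKO mouse, though its genes went both ways. The part of these cells in the *Nox4* values was not tested. *Nox4* was counted at 1.02, 3.55, 2.25, 0.987 and 1.10 CPM in MLPKO and 2.99, 1.07, 5.65, 2.05 and 2.92 CPM in cRADΔ/Δ-MLPKO, from 37 to 207 counts per library. The genotypes overlapped, MLPKO mouse 2 being above 4 of the 5 cRADΔ/Δ-MLPKO mice. The log2 fold change was 0.73 (SE 0.46, 95% interval −0.28 to 1.73, adjusted p = 0.392), and the interval held both a decrease and a large increase. The estimate was 0.35 (adjusted p = 0.716) without cRADΔ/Δ-MLPKO mouse 3 and 1.11 (adjusted p = 0.167) without MLPKO mouse 2. Without both mice it was 0.74 (adjusted p = 0.319).

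Most macrophage markers also had positive estimates. The list of 12 summed to 271, 229.8, 242, 319.7 and 219 CPM in MLPKO and to 348, 265, 562, 349 and 396 CPM in cRADΔ/Δ-MLPKO, the ranges overlapping. Of the 12 genes 11 had an estimate above 0 and an unadjusted p under 0.05, and none was called by edgeR, where DESeq2 called 5; *Adgre1* (F4/80) had a log2 fold change of 0.60 (adjusted p = 0.0532). Per 1000 CPM of the macrophage list, *Cybb* came to between 25.9 and 29.2 CPM in MLPKO and between 23.6 and 31.5 CPM in cRADΔ/Δ-MLPKO, and *Cyba* to between 45.8 and 59.6 and between 37.8 and 60.9 CPM. The ranges of the genotypes overlapped on this scale, as they did in CPM. Neutrophil markers were low in all mice, the list of 7 summing to between 2.77 and 3.35 CPM in MLPKO and between 2.83 and 6.22 CPM in cRADΔ/Δ-MLPKO, with *Ly6g* at 0 in 9 mice. The part of macrophage content in the *Cyba* and *Cybb* values was not tested.

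**Figure D4:**
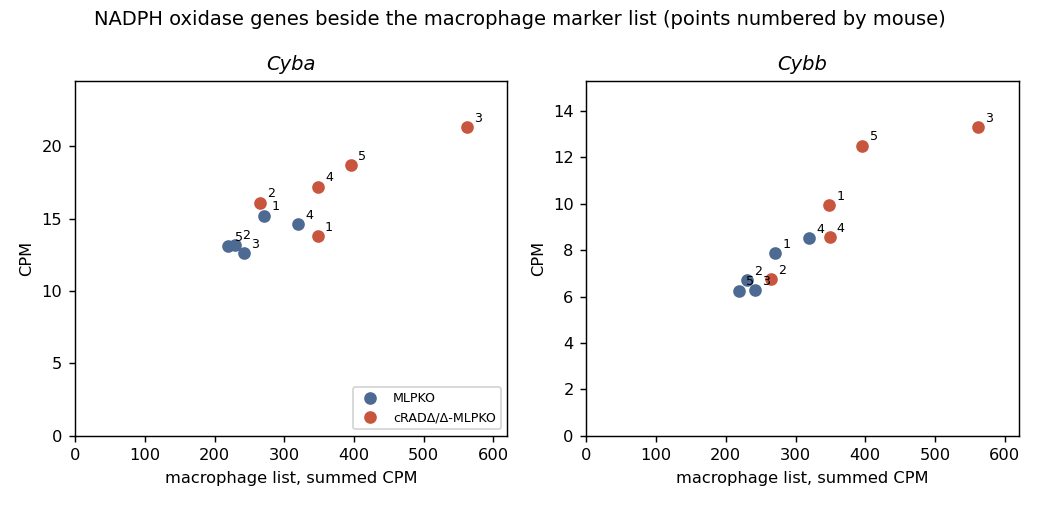
CPM of *Cyba* and *Cybb* in each mouse (vertical axes) against the summed CPM of the 12 macrophage markers (horizontal axes), blue for MLPKO and red for cRADΔ/Δ-MLPKO, points numbered by mouse. cRADΔ/Δ-MLPKO mouse 3, at 562 CPM of macrophage markers, is highest in both panels (21.3 and 13.3 CPM).

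A further list of 117 redox genes covered the rest of the pathway, of which 116 were matched by name and 102 passed the filter. Of these 102, 3 were called higher and 3 lower (5.88%), 27 had an unadjusted p under 0.05 (26.5%), and 12 did not overlap (11.8%); the corresponding shares of all genes were 2.74%, 21.6% and 6.62%. The called genes were transferases in both directions, both ferritin chains and the adaptor p62. In the list of metallothioneins, ferritins and haem products all 8 genes tested had an estimate above 0, with 2 called, and among NRF2 partners 10 of 11 had one below 0, with 1 called. No gene was called in the lists of oxidase partners (7 tested), NADPH supply (13), glutaredoxins, methionine sulfoxide reductases and sestrins (17), selenoprotein supply (11) or other oxidase and quinone genes (16).

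Of the cytosolic oxidase subunits, *Ncf1* (p47phox) stood at 2.89, 1.81, 2.35, 2.4 and 2.03 CPM in MLPKO against 3.2, 1.28, 4.42, 2.34 and 3.84 CPM in cRADΔ/Δ-MLPKO, and *Ncf4* (p40phox) at 0.532, 1.3, 1.46, 1.23 and 0.794 CPM against 0.778, 0.827, 1.94, 1.40 and 1.09 CPM. Both overlapped between the genotypes, with log2 fold changes of 0.39 (−0.23 to 1.01) and 0.18 (−0.53 to 0.90). *Nox1*, *Nox3*, *Noxa1* and *Noxo1* did not pass the filter.

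Among the transferases outside the 38, *Gsto1* fell. This omega-class enzyme with thioltransferase activity was at 147, 195, 153, 123 and 156 CPM in MLPKO and at 106, 103, 108, 96.4 and 103 CPM in cRADΔ/Δ-MLPKO, every value of the second group below every value of the first. With a log2 fold change of −0.58 (SE 0.10, adjusted p = 0.0196), it remained called in 8 of the 10 fits that left out a mouse, the exceptions being MLPKO mouse 5 (adjusted p = 0.0551) and cRADΔ/Δ-MLPKO mouse 5 (0.059).

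*Gstm3*, another mu-class enzyme of the cluster that holds *Gstm1* and *Gstm2*, was far less abundant, at 1.11, 2.31, 0.651, 0.8 and 1.46 CPM in MLPKO and 0.509, 0.240, 0.273, 0.601 and 0.339 CPM in cRADΔ/Δ-MLPKO. These values rested on 10 to 73 counts per library; the log2 fold change was −1.67 (SE 0.39) with an adjusted p of 0.0475 in edgeR and 0.064 in limma-voom. Leaving out MLPKO mouse 3 or 4 kept its call, and leaving out any of the other 8 gave an adjusted p of up to 0.112; without a filter it was 0.0516. *Mgst3*, a microsomal enzyme with glutathione peroxidase activity, went the other way, from 144, 105, 132, 133 and 131 CPM in MLPKO to 192, 164, 158, 192 and 160.0 CPM in cRADΔ/Δ-MLPKO. Again the groups did not overlap (log2 fold change 0.43, SE 0.09, adjusted p = 0.0339), and the call held without MLPKO mouse 2 or 4 and was lost without any of the other 8, with an adjusted p of up to 0.0805.

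The ferritin chains, which store iron and so keep it from generating hydroxyl radicals, were both higher in cRADΔ/Δ-MLPKO. *Fth1*, the heavy chain, was at 836, 792, 876, 996 and 874 CPM in MLPKO and at 1041, 1089, 1065, 1251 and 1072 CPM in cRADΔ/Δ-MLPKO. Its log2 fold change was 0.34 (SE 0.08, adjusted p = 0.0430), a call kept only without MLPKO mouse 4 among the 10 fits that left out a mouse, where the adjusted p reached 0.0983, and lost without a filter (0.0512). *Ftl1*, the light chain, stood at 18.0, 18.6, 21.6, 21.3 and 20.6 CPM against 27.5, 26.6, 35.4, 25.7 and 25.6 CPM, with a log2 fold change of 0.49 (SE 0.10, adjusted p = 0.0267) that was called in 7 of the 10 such fits and not without MLPKO mouse 1 (0.0669) or 5 (0.0656) or cRADΔ/Δ-MLPKO mouse 5 (0.059). Neither chain overlapped between the genotypes. *Ftl1* shares 33.9% and *Fth1* 21.9% of 100-base stretches with pseudogenes or antisense genes, so their levels, and the ratio of the chains, are uncertain. Macrophages are rich in ferritin, and the part of the macrophage markers in these values was not tested.

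**Figure D5:**
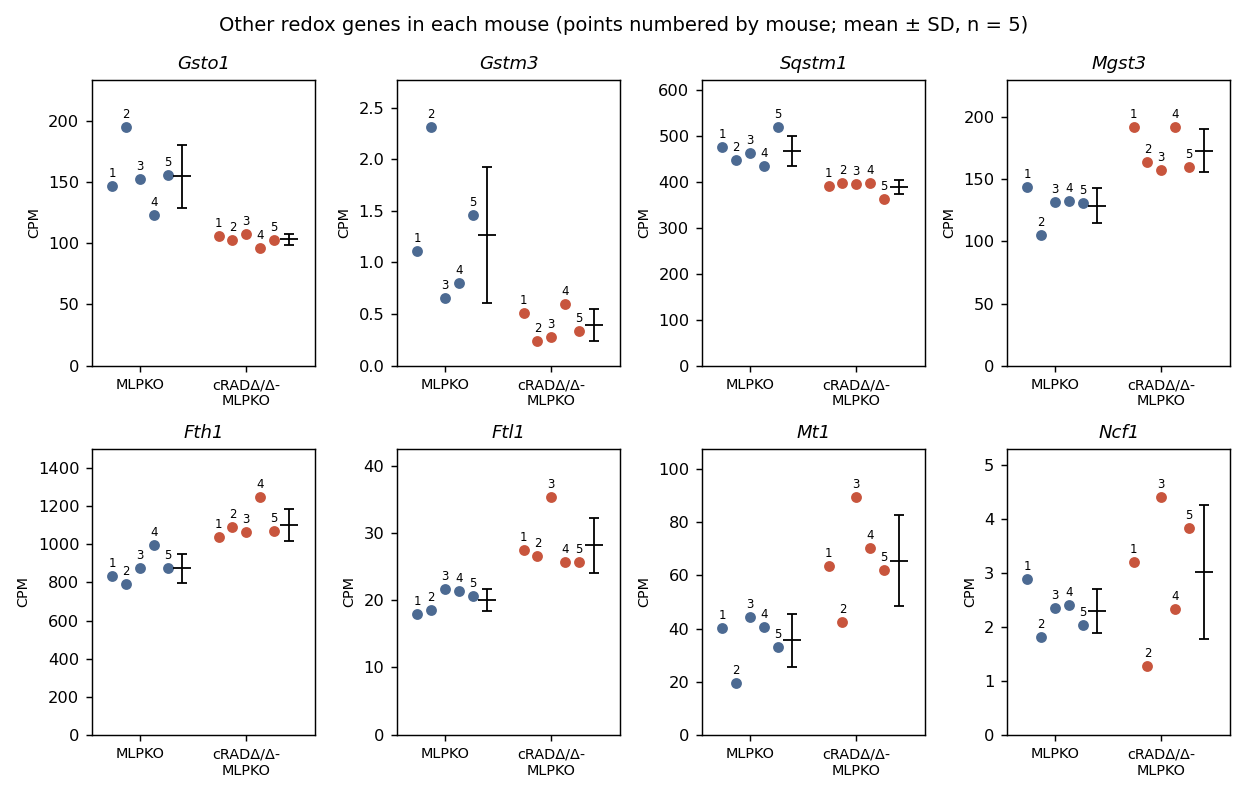
CPM of 8 redox genes outside the 38 in each mouse, points numbered by mouse, with the mean and SD of each genotype (n = 5) to the right of its points. The 6 called genes (*Gsto1*, *Gstm3*, *Sqstm1*, *Mgst3*, *Fth1*, *Ftl1*) do not overlap between the genotypes, *Mt1* does in 1 cRADΔ/Δ-MLPKO mouse (42.4 CPM), and *Ncf1* does too.

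*Sqstm1*, the autophagy adaptor p62 that sequesters KEAP1 and is itself an NRF2 target, was lower in cRADΔ/Δ-MLPKO: 475, 446, 462, 435 and 518 CPM in MLPKO against 391, 396, 394, 397 and 362 CPM. The log2 fold change was −0.27 (SE 0.06, adjusted p = 0.0427), and the call held without MLPKO mouse 2 or 4 and was lost without any of the other 8 (adjusted p of up to 0.113), without a filter (0.0627) and with upper quartile size factors (0.0515). *Mt1*, a metallothionein that binds zinc and scavenges radicals, was at 40.1, 19.3, 44.3, 40.7 and 33.2 CPM in MLPKO and at 63.5, 42.4, 89.7, 70.3 and 62.1 CPM in cRADΔ/Δ-MLPKO. Its log2 fold change of 0.88 (SE 0.22) narrowly missed the threshold in edgeR (adjusted p = 0.0574), passed it without MLPKO mouse 2 (0.0491) or 4 (0.0477) and in DESeq2 (0.00218), and was 0.75 (adjusted p = 0.118) without cRADΔ/Δ-MLPKO mouse 3. *Mt2*, with 82.4% of its exonic bases under an antisense gene, was counted at only 0.485, 0.222, 0.217, 0.347 and 0.221 CPM against 0.449, 0.109, 1.04, 0.668 and 0.452 CPM.

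On the side of NADPH supply, *G6pdx*, the entry enzyme of the pentose phosphate pathway, was at 6.63, 7.54, 5.41, 5.60 and 4.59 CPM in MLPKO and 6.46, 6.53, 8.03, 5.46 and 5.54 CPM in cRADΔ/Δ-MLPKO (log2 fold change 0.11, 95% interval −0.23 to 0.44). *Nnt*, the mitochondrial transhydrogenase that makes NADPH from NADH, was barely detected in any heart, at 1.09, 0.475, 0.888, 0.933 and 0.882 CPM against 0.329, 0.566, 1.12, 1.27 and 0.633 CPM, or 0.0615 CPM per kilobase of exon over all mice. *Slc7a11*, the cystine importer that feeds glutathione synthesis, fell short of the filter with 4 to 24 counts per library. Its values were 0.185, 0.190, 0.118, 0.107 and 0.176 CPM in MLPKO and 0.539, 0.523, 0.382, 0.401 and 0.271 CPM in cRADΔ/Δ-MLPKO, without overlap. On the log2 scale the difference was 1.43 (SE 0.38), with an adjusted p of 0.0748 in edgeR's fit without a filter. With edgeR's own filter the adjusted p was 0.0417, but a gene can pass that filter on the mice of the higher genotype alone. *Slc7a11* was higher in every cRADΔ/Δ-MLPKO mouse, so that value is not independent support for a difference.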

How the data were processed

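Gene counts of left ventricular bulk RNA-seq from 5 MLPKO and 5 cRADΔ/Δ-MLPKO mice were used as the authors deposited them: raw read counts per gene, with GRCm39 as build. Per the labels and the study's methods, RNA of the apical part of the ventricles was enriched for polyadenylated transcripts, reads were checked with FastQC, aligned with STAR and counted with featureCounts; versions and settings for strand, read pairs and shared reads are not given in the sources used here. Names and exon lengths came from GENCODE M39, and start-site windows from RefSeq. The study's filter was kept (over 10 counts in at least 6 of 10 mice, predicted Gm and Rik genes left out). Genotypes were compared over all 13453 genes with edgeR 4.0.16 (TMM, quasi-likelihood test, two-sided) in R 4.3.3, with Benjamini-Hochberg adjustment; DESeq2 1.42.0, limma-voom (limma 3.58.1), other size factors and filters, a replicate block and fits without each mouse were alternatives. The scripts were tested on counts simulated for the 13453 genes, 200 of them changed by 1 or 2 on the log2 scale. The spread of the simulated counts was that which edgeR estimated from the real ones. edgeR recovered 171, DESeq2 177 and limma-voom 169 of the 200. False calls made up 5.0%, 16.1% and 4.52% of their calls. Each library came from a separate mouse by the labels. CPM are TMM-scaled, and CPM per kilobase divides by the summed length of all annotated exons, which is longer than most transcripts.

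The genes and lists were chosen with earlier results of these data known. Described mouse by mouse were the genes with an adjusted or unadjusted p under 0.05 and 13 of the 38 chosen for their role whatever their values; of the further redox list, the called genes and 8 chosen likewise, of which 1 is not reported here. Of the marker lists, the fibroblast list summed to between 1088 and 1623 CPM in MLPKO and between 944 and 1649 CPM in cRADΔ/Δ-MLPKO, and the atrial list to between 109 and 2440.3 and between 148 and 438 CPM.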

Additional observations from a re-analysis of the deposited data

Results flagged for a closer look

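In 9 of the 104 groups of 5 mice examined, 1 mouse stood apart from the other 4 by Dixon's criterion (the gap to its nearest neighbour over the whole range); chance gives such a gap in about 1 in 20 groups. In MLPKO these were *Prdx6* in mouse 5 (211 CPM, next 187), *Srxn1* in mouse 2 (33.9 CPM, next 22.8) and *Txn2* in mouse 4, which was low (152 CPM, next 163). In cRADΔ/Δ-MLPKO the high values were *Prdx3* in mouse 4 (233 CPM, next 210.4), *Gclm* in mouse 3 (24.6 CPM, next 21.0), *Nqo1* in mouse 1 (73.9 CPM, next 59.2), *Fth1* in mouse 4 (1251 CPM, next 1089) and *Ftl1* in mouse 3 (35.4 CPM, next 27.5). *Sqstm1* in cRADΔ/Δ-MLPKO mouse 5 was low (362 CPM, next 391). No single mouse accounted for the list, the 9 values falling on 3 MLPKO and 4 cRADΔ/Δ-MLPKO mice.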

How the results depend on the processing

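Of the 38 genes, those called lower numbered 0 to 2, and those called higher 0 to 0, when single mice were left out. DESeq2 called 1 higher, and 0 were called lower without MLPKO mouse 2 and cRADΔ/Δ-MLPKO mouse 3 together, an alternative chosen after seeing the data. Genes without overlap numbered 3 to 5. In the further redox list, upper quartile size factors and edgeR's own filter each gave 5 higher and DESeq2 gave 9; lower were 1 without a filter, 8 with DESeq2 and 1 without both mice. Leaving out single mice gave 0 to 5 higher and 0 to 7 lower. Over all genes DESeq2 called 1298, the fit without both mice 159, and fits without single mice 47 to 826. The cause of these changes was not tested.

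With the mouse number as a replicate block, 1 of the 38 genes was called lower (*Gstm2*, adjusted p = 0.0467; *Cat*, adjusted p = 0.0724), 5 of the further list were called higher, *Sqstm1* (adjusted p = 0.0953) and *Gstm3* (0.0858) were not called, and 281 of all genes were called. Correlations between the deviations of same-numbered mice were 0.0252, 0.066, 0.0972, 0.152 and −0.0442. No reference was used here to judge them by, and the sources used here do not give what same-numbered mice share beyond the number. Fold changes of single genes that passed a test kept their sign in every alternative. With 5 mice per genotype, small changes in *Nox4*, *Gpx3*, *Txnip* and *Hmox1* were not detectable.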
